A study of Mus musculus with 12 samples.

Results

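Sp110, Zfp146 and Mlxip are 3 mouse genes at which DNA methylation was already lower in B cells that had divided 3 to 5 times than in undivided cells of the same hosts, and Sp100 and Sp140 are relatives of Sp110 from the same stretch of chromosome 1. The members are all CpG positions that the deposited tables assign to 1 of these 5 gene symbols. They make up 32 of the 760348 CpGs that had at least 10 reads in each of the 12 samples, and 72 of the 1639598 CpGs that had at least 10 reads in each group. Sp110, Zfp146 and Mlxip were chosen by their differences in methylation between Div3, Div5 or Div8neg and undivided cells in earlier results of these data, so these differences are given as a description with no test. Sp100 and Sp140 were taken for their relation to Sp110, and their gene levels were tested.

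The samples were B cells from mouse spleen. Resting B cells (B220+ CD43-) of naive donors were labelled with CFSE or CTV, dyes that are diluted at each cell division, and transferred into uMT mice, a strain that lacks mature B cells of its own. The hosts were challenged with LPS, a bacterial cell wall component that drives B cells to divide, and the transferred cells were sorted 3 days later. The 6 fractions were Div0 (no division), Div1, Div3, Div5, Div8neg (at least 8 divisions, CD138-) and Div8pos (at least 8 divisions, CD138+, the surface marker of plasma cells), each from the 2 hosts 196 and 197. All cells, Div0 included, came from LPS-challenged uMT hosts, so no fraction stands for B cells outside that setting. The sample labels give female animals of 8 weeks and the strain B6.SJL-Ptprca Pepcb/BoyJ, whereas the series' design names C57/BL6J donors. Whether the 2 hosts received cells of different donors is not given in the sources used here. Promoter CpGs of Prdm1, a regulator of plasma cells, averaged 5.59% methylation in Div0. The promoter CpGs of Cd3e (a T cell gene) averaged 97.2% and those of Itgam (a myeloid gene) 96.0%, and no promoter CpG of the other T cell, myeloid and plasma cell markers was covered.

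DNA methylation at CpGs is copied onto the new strand after replication, and sites that are not copied lose methylation as cells divide. Sp110, Sp100 and Sp140 are chromatin proteins of nuclear bodies that interferons induce. Sp110, also called Ipr1, is known for the control of intracellular bacteria in mouse macrophages, and Sp100 is a constituent of PML nuclear bodies. Zfp146, also called OZF, is a small protein made almost wholly of zinc fingers. Mlxip, also called MondoA, is a transcription factor that pairs with Mlx and responds to glucose phosphates inside the cell.

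Methylation was read by reduced representation bisulfite sequencing, in which DNA is cut with MspI and TaqI, treated with bisulfite and sequenced, so that CpGs near these enzymes' sites are covered. A methylation level is the percentage of reads that kept a cytosine at a CpG. A gene level is the unweighted mean of these percentages over the gene's CpGs within 50000 bp of a start site, computed for 16505 genes with at least 5 such CpGs. Read counts summed over all CpGs ran from 17969105 to 56775157 per sample, and the host 197 library was the deeper in every fraction. At the 32 CpGs a single value rested on 10 to 404 reads, and its 95% Wilson interval was 4.63 to 51.9 points wide, for counting error only.

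Promoter windows are described first because the largest early loss in Sp110 lay close to a start site of that gene. Those of Sp110, Sp100 and Zfp146 are printed. They are RefSeq sequences of the build GRCm38.p6, from 250 bases before to 50 bases after a start site, written in the direction of transcription with CpGs in capitals. All 5 genes had a window. Sp110 is on the minus strand and has 2 start sites, which lie 5089 bp apart in the distances of the deposited mm9 tables and 5081 bp apart in GRCm38.p6. No coordinates were converted between the builds.
Sp110, upper start (GRCm38.p6 chr1:85603842-85604141, minus strand): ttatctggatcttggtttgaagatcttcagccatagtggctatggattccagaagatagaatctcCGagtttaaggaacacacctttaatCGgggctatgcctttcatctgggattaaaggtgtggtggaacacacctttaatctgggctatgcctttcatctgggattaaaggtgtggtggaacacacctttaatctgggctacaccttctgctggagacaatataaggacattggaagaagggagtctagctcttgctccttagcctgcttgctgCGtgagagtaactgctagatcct
Sp110, lower start (GRCm38.p6 chr1:85598761-85599060, minus strand): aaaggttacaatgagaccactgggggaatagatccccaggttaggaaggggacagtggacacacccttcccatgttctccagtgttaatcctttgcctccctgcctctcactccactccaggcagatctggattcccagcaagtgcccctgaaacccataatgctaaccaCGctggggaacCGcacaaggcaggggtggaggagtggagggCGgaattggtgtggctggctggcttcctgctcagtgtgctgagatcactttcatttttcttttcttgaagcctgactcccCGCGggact
Sp100 (GRCm38.p6 chr1:85649738-85650037, plus strand): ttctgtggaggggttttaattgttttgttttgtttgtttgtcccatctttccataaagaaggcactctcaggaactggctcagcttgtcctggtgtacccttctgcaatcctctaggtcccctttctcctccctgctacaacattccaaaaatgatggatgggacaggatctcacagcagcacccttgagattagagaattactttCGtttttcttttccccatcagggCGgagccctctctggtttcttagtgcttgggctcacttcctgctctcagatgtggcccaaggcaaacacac
Zfp146 (GRCm38.p6 chr7:30169692-30169991, minus strand): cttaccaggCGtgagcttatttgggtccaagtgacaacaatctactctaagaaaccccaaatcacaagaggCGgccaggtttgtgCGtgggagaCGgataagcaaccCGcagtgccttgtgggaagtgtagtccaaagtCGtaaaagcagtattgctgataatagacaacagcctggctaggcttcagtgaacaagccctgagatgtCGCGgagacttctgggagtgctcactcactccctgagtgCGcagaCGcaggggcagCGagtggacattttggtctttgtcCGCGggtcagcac
The upper Sp110 window holds 3 CpGs, the lower 5, the Sp100 window 2, the Sp140 window 7, the Zfp146 window 13 and the Mlxip window 28, against a median of 7 over 32544 mouse windows. The MspI site (CCGG) occurs 7 times in the Mlxip window and not in the others, and 53.0% of all windows hold it. The TaqI site (TCGA) occurs in none of the 5 genes' windows, and 22.1% of all windows hold it. The core of the interferon-stimulated response element, searched on both strands, is in 2.04% of all windows. It was found on the reverse strand 9 bases downstream of the lower Sp110 start and 47 bases upstream of the Sp100 start of the printed window. Another Sp100 start, whose window overlaps the printed one, has the same match 73 bases upstream. The 2 stretches are shown with the match in capitals, and the Sp100 match includes a CpG.
Sp110, lower start (GRCm38.p6): gatcacTTTCATTTTTCttttct
Sp100 (GRCm38.p6): aattacTTTCGTTTTTCttttcc
No measured CpG lay within 50 bp downstream or 250 bp upstream of a start site by the tables' own distances, so the methylation of these windows was not measured. The nearest were 498 bp downstream of the upper Sp110 start and, in the table of 10 reads per group, 373 bp downstream of the Zfp146 start.

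In the gene levels, Sp110, Zfp146 and Mlxip were lower at Div3, when the typical gene had hardly moved. The differences from Div0 at Div3 were -18.4 points for Sp110, -15.0 for Mlxip and -14.0 for Zfp146, which gave them ranks 2, 3 and 4 from the lowest of 16505 genes, where the median gene differed by -0.264 points. Sp100 differed by -4.94 points and Sp140 by -1.35. At Div5 the differences were -25.8 points for Sp110, -22.0 for Zfp146, -17.2 for Mlxip, -11.6 for Sp100 and -1.59 for Sp140, where the median gene differed by -0.606 and the lowest 5% of genes by -3.27 or less. At Div8neg the median gene stood at -2.28 and at Div8pos at -5.21. The sizes at Div5 depended on how CpGs were weighted, with -13.8 points for Sp110 when reads were summed over its CpGs. In the table of 10 reads per group they were -16.3 for Sp110, -11.0 for Zfp146 and -5.63 for Mlxip.

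**Figure D1:**
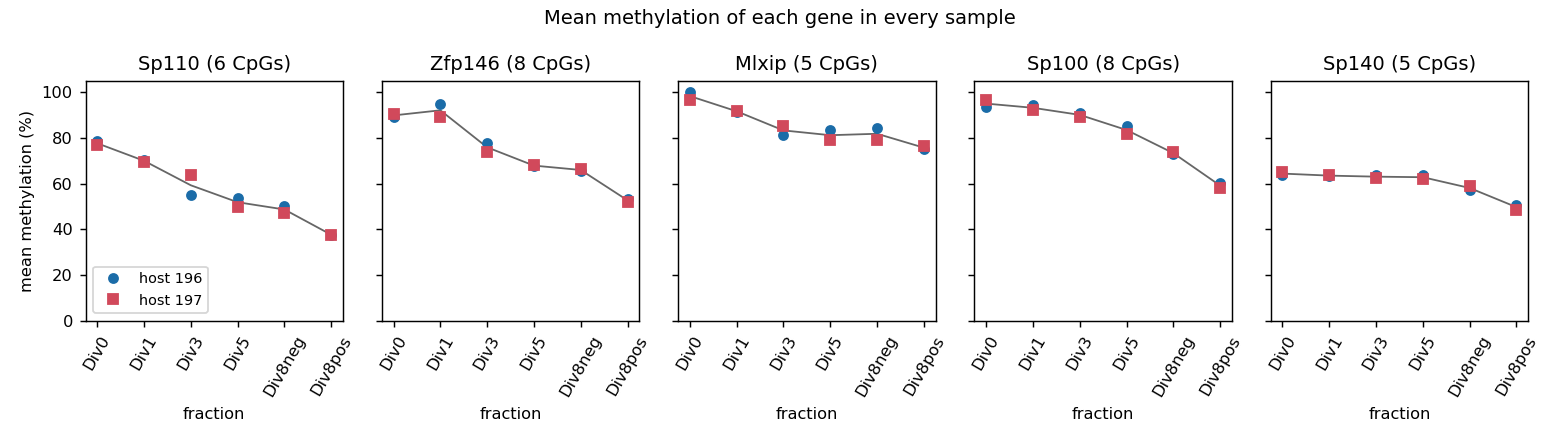
Mean methylation (%) of the 5 genes in each of the 12 samples, by fraction. Circles are host 196, squares host 197 and the line joins the means. Both samples of Sp110 and of Mlxip lie below both of Div0 from Div1 on, those of Zfp146 and Sp100 from Div3 on, and Sp140 at 62.8% in Div5 is still close to its 64.4% in Div0.

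**Figure D2:**
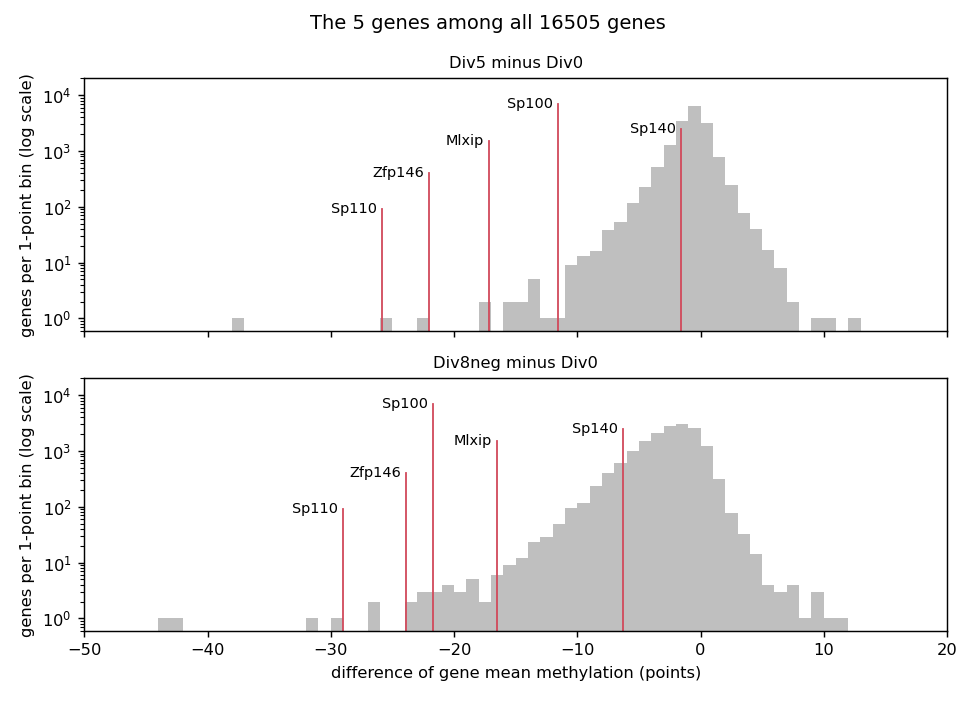
Number of genes per 1-point bin (log scale) of the difference in mean methylation for Div5 minus Div0 (top) and Div8neg minus Div0 (bottom), with lines for the 5 genes. At Div5 Sp110 (-25.8), Zfp146 (-22.0) and Mlxip (-17.2) lie in the far lower tail and Sp140 (-1.59) lies in the bulk.

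Counted CpG by CpG, members were called lower if the adjusted p of a quasi-binomial test was under 0.05 and the difference at least 20 points. The test used 1 dispersion, 1.16, for all CpGs, so a small p does not measure a CpG's own spread between hosts. With the dispersion of each CpG alone, no member was called at Div5, Div8neg or Div8pos, and no CpG at all was called lower. In that setting 12, 17 and 20 of the 32 members had an unadjusted p under 0.05, against 1.8%, 5.64% and 17.8% of all CpGs. No member was called at Div1, where 0% of all CpGs were called lower and 4 of the 32 members had an unadjusted p under 0.05, against 5.44% of all CpGs. At Div3, 3 of the 32 CpGs were called lower (2 of Zfp146 and 1 of Mlxip), against 0.027% of all CpGs. The counts were 10 at Div5 against 0.123%, 11 at Div8neg against 0.781%, and 15 at Div8pos against 6.61%. The comparisons with Div0 share the same 2 Div0 libraries and were used to choose the genes, so these counts describe the members and test nothing. No member was called higher, where the shares of all CpGs were 0.00118% at Div3, 0.00552% for Div5, 0.0397% for Div8neg and 0.0271% for Div8pos. None had an unadjusted p under 0.05 in that direction.

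**Figure D3:**
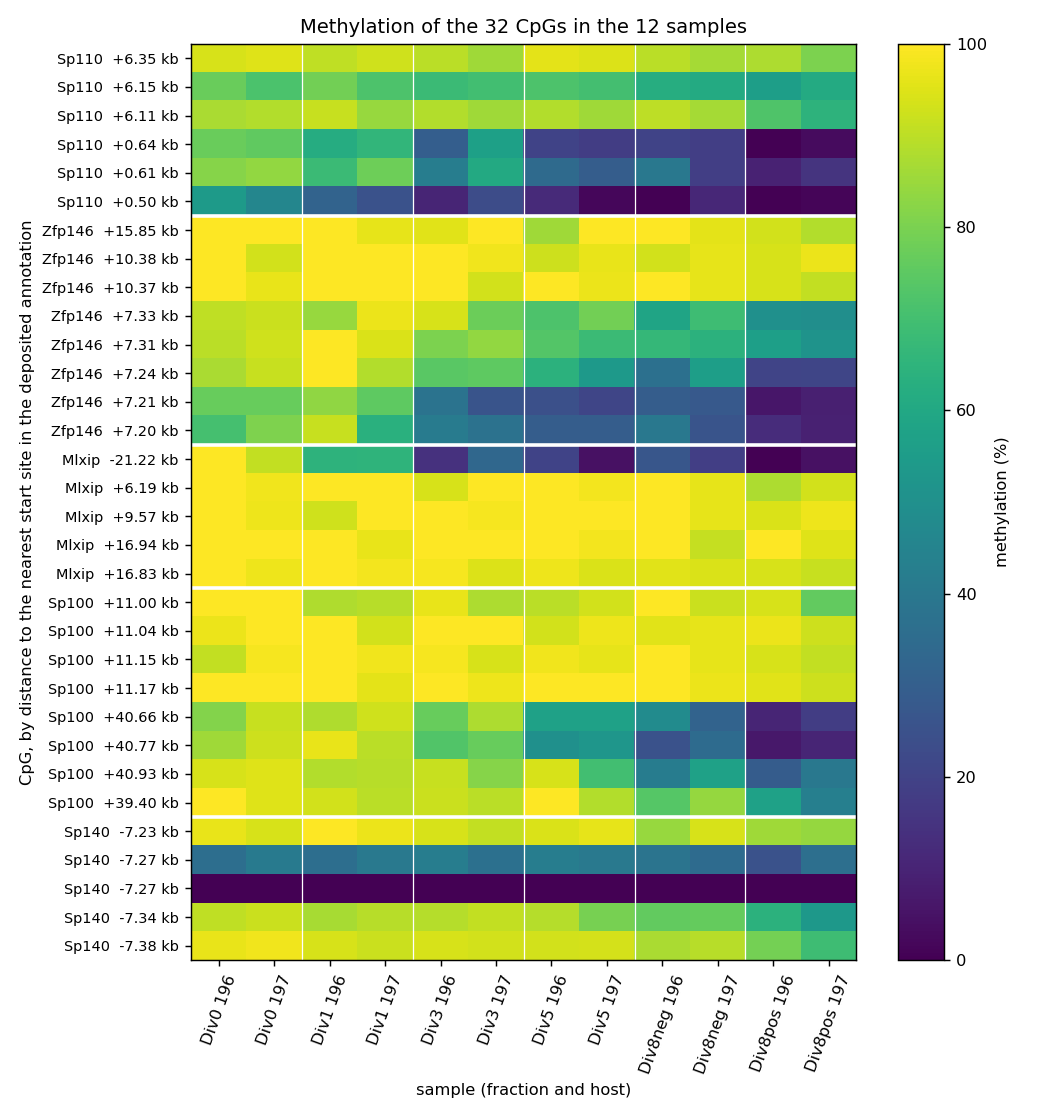
Methylation (%) of each of the 32 CpGs (down the page, by gene and position, labelled with the distance to the nearest start site) in the 12 samples (across, by fraction and host). The 12 rows whose mean is at least 20 points lower in Div8neg than in Div0 are 3 CpGs of Sp110, 5 of Zfp146, 1 of Mlxip and 3 of Sp100, and 1 Sp140 row is at 0% throughout.

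Sp110 had 6 CpGs in 2 clusters, both in introns, and the cluster near the upper start site differed more from Div0 at Div3 (-32.5 points) than the other did (-4.34). In host 196 the gene level was 78.6% in Div0, 70.4% in Div1, 54.9% in Div3, 53.8% in Div5, 50.3% in Div8neg and 37.7% in Div8pos. In host 197 it was 76.8%, 69.6%, 63.7%, 50.0%, 47.0% and 37.6% over the same fractions. From Div1 on every sample lay below both Div0 samples, and the hosts were furthest apart at Div3.

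The early cluster of Sp110 comprised 3 CpGs over 147 bp (mm9 chr1:87499821-87499967), 498 to 644 bp downstream of the upper start, where the tables annotate introns of both Sp110 and Sp140. Its mean was 71.2%, 54.0%, 27.7%, 22.2%, 20.0% and 3.17% from Div0 to Div8pos in host 196, and 68.5%, 56.2%, 47.0%, 16.4%, 16.0% and 6.49% in host 197. The order Div0, Div1, Div3, Div5 held in both hosts, Div5 and Div8neg were alike, and Div8pos was lowest. Of the difference between Div8pos and Div0, 50.0% was present at Div3 and 77.7% at Div5. There too the hosts were furthest apart at Div3.

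At position 87499821, the CpG of Sp110 with the largest difference at Div8neg, methylation was 77.3% and 75.7% in Div0 30% and 56.8% in Div3 (hosts 196 and 197). It was 20.0% and 18.0% in Div5, 20.0% and 18.5% in Div8neg, and 0% and 3.03% in Div8pos. The 0% rests on 20 reads, which allow a level of up to 15.0%. The CpG at 87499967 started lower, at 54.5% and 45.9% in Div0, and was at 12% and 1.64% by Div5.

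The other Sp110 cluster, 3 CpGs over 246 bp (chr1:87489025-87489270), lay 6106 to 6351 bp from the lower start. Its mean was 86.0%, 86.9%, 82.1%, 85.4%, 80.7% and 72.2% from Div0 to Div8pos in host 196, and 85.2%, 83.1%, 80.4%, 83.5%, 78.0% and 68.6% in host 197. Div3 lay below Div0 in both hosts, and Div5 lay between them. At 87489270, the CpG with the smallest loss at Div8neg, methylation was 90% and 86.4% in Div8neg, against 87.2% and 88.6% in Div0. All 4 further Sp110 CpGs of the table of 10 reads per group lay between 92.9% and 97.8% in pooled Div0, and none was 20 points lower in any of Div5, Div8neg and Div8pos.

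Sp140 changed late at the positions that carry its symbol. The early Sp110 cluster also lies in an intron of Sp140 but is not counted in the Sp140 level. The gene level was 63.9%, 63.4%, 63.8%, 63.8%, 57.3% and 50.8% from Div0 to Div8pos in host 196, and 64.9%, 63.7%, 62.4%, 61.9%, 58.9% and 48.6% in host 197. Div1, Div3 and Div5 stood within 3.01 points of Div0 of the same host, and both Div8pos samples lay below all others. The Div5 minus Div0 difference was -1.59 points (SE 1.02, limma adjusted p = 0.643). Div8neg was -6.32 points from Div0 (limma adjusted p = 0.00244, under the limit of 10 points), and Div8pos fell by 14.7 points (limma adjusted p = 4.96e-06).

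The 5 Sp140 positions form 1 cluster (chr1:87507695-87507852) in an intron, 7228 to 7385 bp upstream of the upper Sp110 start. The CpG at 87507803 had the largest difference. It was at 76.1% and 76.4% in Div8neg and 64.2% and 53.4% in Div8pos, against 90.5% and 92.0% in Div0, and was called lower at Div8pos only (difference -32.5, quasi-binomial adjusted p = 1.48e-21). The CpG at 87507852 was also called at Div8pos (difference -23.2, quasi-binomial adjusted p = 2.85e-14). Positions 87507733 and 87507734 are 1 bp apart and so cannot both be the cytosine of a CpG on the same strand. The first had 36.0% and 40.9% in Div0, the second 0% in all 12 samples at 12 to 60 reads, which allows levels of up to 5.0% to 25%. Without both, the Sp140 difference was -3.60 points at Div5, -9.99 at Div8neg and -22.0 at Div8pos.

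Sp100 was called lower at Div5, Div8neg and Div8pos, by more at each. The gene level was 93.6%, 94.4%, 91.0%, 85.2%, 73.1% and 60.4% from Div0 to Div8pos in host 196, and 96.7%, 92.2%, 89.3%, 81.8%, 73.7% and 57.9% in host 197. Each of Div5, Div8neg and Div8pos lay below all samples of the fractions before it. Sp100 fell by 11.6 points at Div5 (SE 1.48, limma adjusted p = 0.0158), by 21.7 at Div8neg (limma adjusted p = 0.00013) and by 36.0 at Div8pos (limma adjusted p = 9.27e-07). At these contrasts 0.103%, 1.49% and 15.7% of all genes were called lower. The Div5 call was lost without either Div0 library or without Div5 of host 197 (limma adjusted p = 0.0681, 0.0892 and 0.113), with summed reads (0.443) and on a log2 odds scale (1). Between Div8neg and Div5 the difference was -10.1 points (limma adjusted p = 0.00574), and 0.388% of all genes were called lower there. Without the Div5 or the Div8neg library of host 196 it was under 10 points (-8.46 and -9.86).

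The loss in Sp100 was concentrated in an intron 40664 to 40926 bp from its start. There 3 CpGs over 263 bp (chr1:87587290-87587552) averaged 86.9%, 91.1%, 80.4%, 67.1%, 38.5% and 15.3% from Div0 to Div8pos in host 196, and 93.1%, 90.6%, 82.0%, 59.8%, 41.3% and 22.8% in host 197. At 87587397 methylation was 25% and 34.8% in Div8neg and 6.45% and 10.3% in Div8pos, against 85.7% and 92.5% in Div0. That CpG was called lower at Div5 (difference -37.8, quasi-binomial adjusted p = 8.04e-09), Div8neg (-59.2) and Div8pos (-80.7). The single CpG at 87593781 was at 73.7% and 84.3% in Div8neg and 57.1% and 43.1% in Div8pos, against 100% and 95.2% in Div0, and was called at Div8pos only (difference -47.5, quasi-binomial adjusted p = 1.77e-07). The 4 CpGs at chr1:87557630-87557792, about 11 kb from the start, averaged 91.5% in Div8pos and 98.3% in Div0. Among them 87557778 had 100% and 96.2% in Div8neg, against 90.9% and 98.7% in Div0. In the table of 10 reads per group, the CpG at 87587282, 8 bp before the losing cluster, had pooled levels of 96.0% in Div0, 61.9% in Div5, 47.1% in Div8neg and 33.3% in Div8pos.

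In Zfp146 the lower levels were in 5 CpGs of an exon, beside other CpGs that stayed methylated. The gene level was 89.3%, 94.95%, 78.0%, 67.8%, 65.6% and 53.4% from Div0 to Div8pos in host 196, and 90.5%, 89.4%, 73.9%, 68.1%, 66.4% and 52.0% in host 197. Div1 overlapped Div0, and from Div3 on every sample lay below both. Div8neg differed from Div5 by -1.92 points, with -2.14 in host 196 and -1.70 in host 197.

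The exon cluster spans 131 bp (mm9 chr7:30947418-30947548), 7197 to 7327 bp downstream of the start. Its mean was 82.9%, 91.9%, 65.7%, 52.8%, 46.3% and 29.1% from Div0 to Div8pos in host 196, and 86.8%, 83.8%, 60.04%, 50.2%, 48.6% and 28.0% in host 197. In Div0, Div3, Div5 and Div8pos the 2 CpGs nearest the start site were lower than the other 3 in every sample. In Div0 they were at 70.6% to 80.9%, against 87.2% to 92.8% at the other 3. At 30947532 methylation was 76.9% and 76.8% in Div0, 38.2% and 25.9% in Div3, 24.4% and 21.0% in Div5, 29.6% and 27.8% in Div8neg and 6.06% and 8.90% in Div8pos. At 30947548 it was 41.5% and 37.8% in Div3, against 70.6% and 80.9% in Div0. The differences of these 2 CpGs at Div3 were -44.9 and -36.1 points.

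At the other end of the exon cluster the differences were smaller. The CpG at 30947418 was at 94.1% and 77.5% in Div3 and 58.3% and 68.8% in Div8neg, against 90.5% and 92.0% in Div0, and at 50.0% and 49.4% in Div8pos. Between them, 30947506 was at 74.4% and 75.3% in Div3 and at 20.6% and 20.9% in Div8pos, against 87.2% and 91.8% in Div0. The CpGs at 30938895, 30944369 and 30944378, outside the gene, were between 85.7% and 100% in all 12 samples. At 30944378 the values were 100% and 96.2% in Div8neg, against 100% and 96.7% in Div0. In the table of 10 reads per group, 4 CpGs lay 373 to 419 bp downstream of the start, in an intron of Zfp146 that is also annotated as promoter of another gene, and their pooled levels were between 0% and 5.26% in all fractions.

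**Figure D4:**
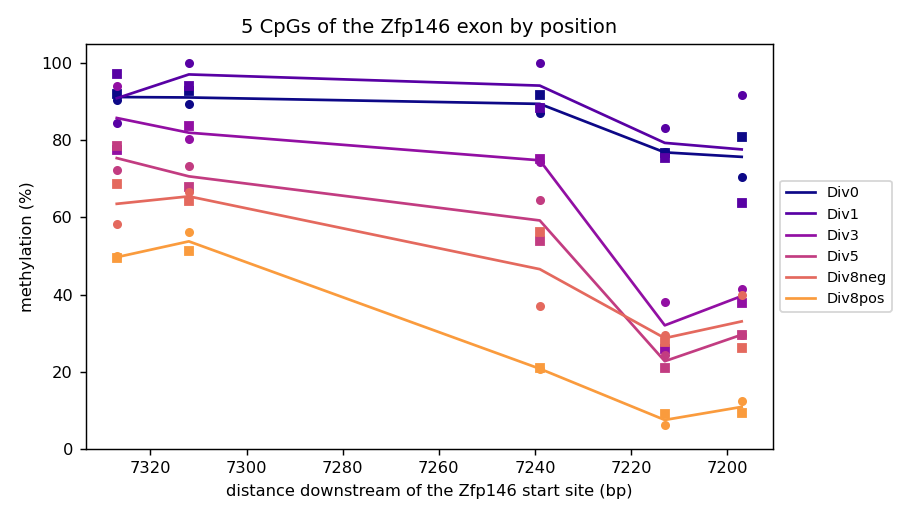
Methylation (%) of the 5 CpGs of the Zfp146 exon against the distance downstream of the start site (bp, falling to the right). Lines join the means of the 2 hosts (circles 196, squares 197), 1 line per fraction. At Div3 the 2 CpGs nearest the start are at 25.9% to 41.5% and the 2 farthest at 77.5% to 94.1%. In Div0 they are at 70.6% to 80.9% and 89.5% to 92.8%, in the same order.

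In Mlxip the early loss came from 1 of its 5 CpGs in the table of 10 reads per sample. The gene level was 100%, 91.5%, 81.4%, 83.5%, 84.5% and 75.2% from Div0 to Div8pos in host 196, and 96.8%, 92.0%, 85.3%, 79.0%, 79.3% and 76.4% in host 197. All samples from Div1 on lay below both Div0 samples, and Div3, Div5 and Div8neg overlapped.

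The CpG at 123869161 (mm9 chromosome 5), in an intron of Mlxip, had 100% and 90.9% in Div0, 64.7% and 65.0% in Div1, 14.3% and 33.3% in Div3, 20.0% and 4.35% in Div5, 26.7% and 18.5% in Div8neg, and 0% and 4.65% in Div8pos. It was lower in every sample from Div1 on than in both Div0 samples. Its differences of -71.6 points at Div3 and -83.3 at Div5 had ranks 3 and 2 from the lowest of 760348 CpGs. The reads behind a value numbered 10 to 46, and the 0% of Div8pos in host 196 rests on 11 reads, which allow up to 27.3%. Without this CpG the Mlxip difference was -0.618 points at Div5, -2.43 at Div8neg and -4.99 at Div8pos. The other 4 CpGs were between 87.5% and 100% in all samples. Of these, 123915172 and 123915280 were annotated in no exon or intron, and their nearest start site was that of Il31. At 123905052, in the 3' untranslated part of the last exon by the tables' annotation, the values were 100% and 96.2% in Div8neg, against 100% and 97.6% in Div0.

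The table of 10 reads per group adds 20 Mlxip CpGs at pooled depths of 10 to 80 reads. A CpG 504 bp further on, at 123869665, had pooled levels of 86.7% in Div0, 95% in Div1, 66.7% in Div3, 52.4% in Div5, 14.3% in Div8neg and 18.2% in Div8pos, on 14 to 30 reads. The CpGs on either side stayed higher. That at 123868953 was 85.7% in Div8neg and 78.4% in Div8pos, against 97.6% in Div0, and that at 123869931 was 86.2% in Div8neg and 71.8% in Div8pos, against 94.9% in Div0. Of the 25 Mlxip CpGs in that table, 2 were at least 20 points lower in pooled Div5 than in Div0, 3 in Div8neg and 8 in Div8pos. Over all 1639598 CpGs the shares were 1.36% at Div5, 4.36% for Div8neg and 11.5% for Div8pos. For Sp110 the counts were 3, 3 and 4 of 10 CpGs, for Sp100 3, 5 and 9 of 14, for Sp140 0, 0 and 2 of 5, and for Zfp146 4, 6 and 5 of 18.

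**Figure D5:**
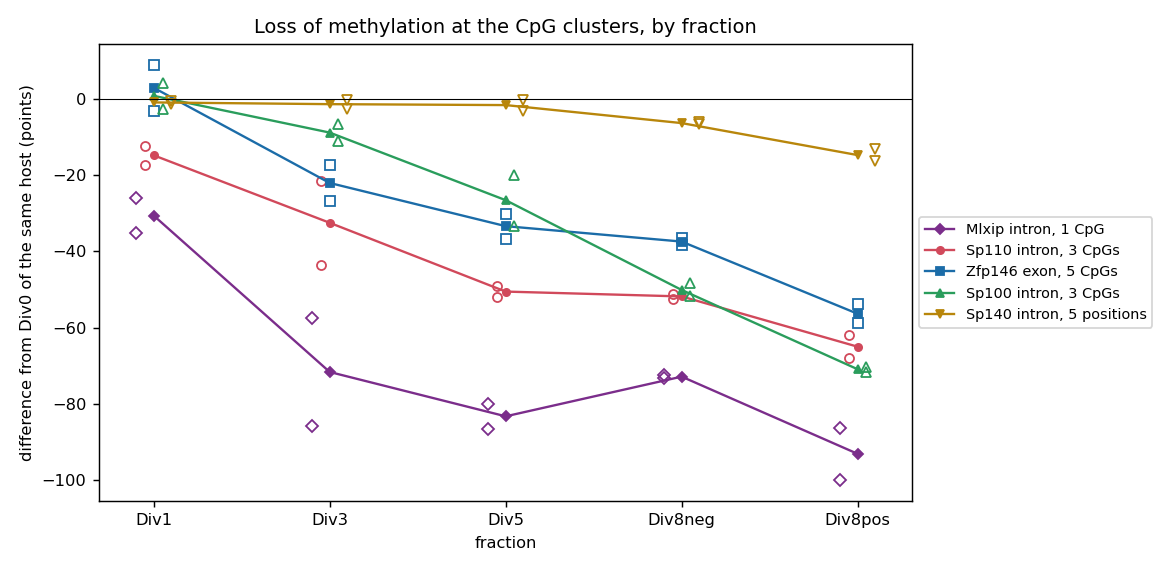
Difference in methylation from Div0 of the same host (points) at the losing cluster of each gene, by fraction. Open symbols are single hosts, and lines with filled symbols are their means. The Mlxip CpG and the Sp110 cluster are lower from Div1, the Zfp146 and Sp100 clusters from Div3, and the Sp140 cluster is at -1.59 at Div5 and -14.7 at Div8pos.

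How early each gene lost methylation was expressed as the share of its Div8pos difference that was present in an earlier fraction, over 1792 genes that lost at least 10 points at Div8pos in both hosts. At Div3 the share was 65.6% for Mlxip, 45.7% for Sp110 and 37.4% for Zfp146, against 13.3% for Sp100, 8.40% for Sp140 and a median of 7.44%. At Div5 it was 76.8% ± 14.5 for Mlxip, 64.5% ± 5.54 for Sp110 and 59.1% ± 1.20 for Zfp146 (SD in points, n = 2 hosts). At the same fraction Sp100 had 31.7% ± 9.27, Sp140 9.88% ± 12.1 and the median gene 14.4%. Mlxip had rank 2, Sp110 rank 5 and Zfp146 rank 8 from the highest at Div5, a description of genes that were chosen for this pattern. At Div8neg the shares were 74.1% for Mlxip, 72.4% for Sp110, 64.3% for Zfp146, 60.5% for Sp100 and 43.7% for Sp140, against a median of 46.9%.

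Between Div8neg and Div5 the early genes differed little. The differences were -3.19 points for Sp110, -1.92 for Zfp146 and 0.638 for Mlxip, where the median gene differed by -1.65 points. The sign for Mlxip was not stable, at -1.78 with summed reads and -1.81 without the CpG at 123869161, and that for Zfp146 was 1.14 with summed reads. Mlxip ran from -1.94 to 3.21 points when 1 library was left out. No member CpG was called between these fractions by the quasi-binomial test, and 0.118% of all CpGs were called lower and 0.00986% higher. Both fractions were used to choose Sp110, Zfp146 and Mlxip, so for their CpGs this count is a description and tests nothing. An unadjusted p under 0.05 was found for 6 of the 32 members, all lower in Div8neg, and for 10.7% of all CpGs. Sp100 differed by -10.1 points and Sp140 by -4.72 (limma adjusted p = 0.0167, under the limit of 10 points).

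Div8pos and Div8neg both divided at least 8 times and differ in CD138. All 5 genes had lower levels in Div8pos: 37.6% ± 0.0766 in Div8pos and 48.7% ± 2.33 in Div8neg for Sp110 (SD in points, n = 2 hosts), 52.7% ± 0.945 and 66.0% ± 0.546 for Zfp146, and 75.8% ± 0.852 and 81.9% ± 3.64 for Mlxip, Div8pos given before Div8neg. The differences were -11.1, -13.3 and -6.10 points, where the median gene differed by -2.75. The Mlxip value was -0.180 with summed reads, -2.56 without the CpG at 123869161 and -3.53 without the Div8neg library of host 196. Sp100 was at 59.2% ± 1.72 in Div8pos and 73.4% ± 0.407 in Div8neg and fell by 14.2 points (limma adjusted p = 0.000294), where 2.09% of all genes were called lower. That call was lost with summed reads (-10.7 points, limma adjusted p = 0.0851) and on a log2 odds scale (limma adjusted p = 0.144). Sp140 was at 49.7% ± 1.60 in Div8pos and 58.1% ± 1.17 in Div8neg, a difference of -8.40 points (limma adjusted p = 0.000511, under the limit of 10 points). Of the member CpGs 4 were called lower in Div8pos, 2 of Sp100 and 2 of Zfp146, against 0.636% of all CpGs, and none higher, against 0.00697%. Div8neg was also used to choose Sp110, Zfp146 and Mlxip, so for their CpGs these calls are a description. The count of 4 was not stable when the Div8neg or the Div8pos library of host 197 was left out. These were the deeper libraries, with median coverages of 41 and 55 reads, against 22 and 30 in host 196. The share of all CpGs called in those runs is not given here. The early Sp110 cluster stood at 4.83% ± 2.34 in Div8pos and 18.0% ± 2.79 in Div8neg, and the Mlxip CpG at 2.33% ± 3.29 and 22.6% ± 5.76 in the same order.

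Of other genes of the same pathways none was called lower at Div5, where 0.103% of all genes were called. Against up to 15.7% of all genes (at Div8pos), none of the 12 genes for PML nuclear bodies was called lower by limma at any contrast. At Div8pos 10 of them had an adjusted p under 0.05, all at under 10 points, against 80.5% of all genes at any size, and their median difference was -3.77 points, where that of all genes was -5.21. Of 24 interferon-inducible genes 18 were measured, and at Div5 none was called and 1 had an unadjusted p under 0.05 by limma, against 10.1% of all genes. Aim2, a sensor of DNA in the cytoplasm, was the one called lower at Div8neg, with 85.4% in Div8neg and 96.5% in Div0 (limma adjusted p = 0.00376). That was 1 of 18, where 1.49% of all genes were called lower. At Div8pos Aim2, the antiviral gene Oasl2 and Usp18, which removes ISG15 from proteins, were called, with differences of -15.3, -12.5 and -10.2 points, so 3 of 18, near the 15.7% of all genes. The median of the 18 was -6.68 points at Div8pos.

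Of 14 genes of the Mlx network and its targets 12 were measured. None was called at Div5, against 0.103% of all genes, and 2 had an unadjusted p under 0.05 by limma, against 10.1%. Mxd3, a dimerisation partner of Max, was the only one called at Div8pos (-11.4 points, limma adjusted p = 2.91e-05), against 15.7% of all genes. Mlxipl, the paralogue of Mlxip, was at 56.3% in Div5 and 48.6% in Div8pos, against 58.1% in Div0. Of 13 zinc finger genes of the Zfp146 region 11 were measured, and none was called at Div5, against the same 0.103%. There 1 had an unadjusted p under 0.05 by limma, against 10.1% of all genes. Zfp260 was the only one called at Div8pos (-18.7 points, limma adjusted p = 1.47e-06), against the same 15.7%.

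The genes next to the early ones were near Div0 at Div5. Their differences ran from -2.46 points at Zfp260 to 1.02 at Gm5113, with limma adjusted p between 0.362 and 0.945, for 3 genes on each side of Sp110, Zfp146 and Mlxip other than Sp140 and Sp100. At Div8pos Fbxo36 (-12.4) and A630001G21Rik (-13.8), on either side of the Sp genes, and Zfp260 (-18.7) were called lower by limma, 3 of the 16 neighbours against 15.7% of all genes, and the neighbours of Mlxip lay between -8.76 and -3.73 points.

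The genes whose levels moved most like Sp110, by the root mean square of the differences over 10 samples, were Zfp146 (7.07 points), Pik3ip1 (8.02) and Cnp (8.95). For Zfp146 they were Cnp (6.08), Tnfrsf13c (6.09), which encodes the BAFF receptor of B cells, and Gm8817 (6.26). For Mlxip they were Tvp23a (4.35), Mmp10 (5.57) and Pex16 (5.98). Pik3ip1, an inhibitor of PI3 kinase, was at 39.2% in Div5, 30.6% in Div8neg and 19.8% in Div8pos, against 56.7% in Div0. All genes were read from the same libraries, and Sp110, Zfp146 and Mlxip were all chosen for early losses, so these likenesses are a description.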

How the data were processed

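Per the labels' protocols, DNA of 12 samples was digested with MspI and TaqI, bisulfite treated, amplified and sequenced as single-end reads. The submitters' processing notes name Bismark, Bowtie2 and the build mm9, with no versions. The deposited tables hold methylated and unmethylated read counts and the methylation fraction per CpG, per the file headers, either for CpGs with 10 reads in every sample or for those with 10 reads in every group. The authors' pooled fractions were used only where "pooled" is written. Gene symbols, distances and classes are those of the deposited tables. The symbol is that of an assigned transcript, and the nearest start site can belong to another gene.

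The 5 genes and the gene lists were chosen with earlier results of these data known. Each CpG of the first table was fitted with a quasi-binomial logistic model of fraction (R 4.3.3), with the dispersion moderated by limma 3.58.1 (1.16, never below 1) and Benjamini-Hochberg adjustment over 760348 CpGs. Gene means were fitted with limma and adjusted over 16505 genes, and called at an adjusted p under 0.05 and 10 points. Both fits were tested on simulated data with known answers. CpGs at most 500 bp apart form a cluster. Text names the 5 genes, per gene the CpGs of largest and smallest difference between Div8neg and Div0, clusters of at least 3 CpGs, the 3 most alike genes, the 3 nearest genes on each side and the called genes of each list. Other CpGs were named after their values were seen. A count of 0 was given the level that 3 counts allow.

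Fractions of a host come from the same animal per the labels, which pairs the samples. The deviations of a host's samples from their fraction's mean correlated at -0.0109 to 0.0215, over 15 pairs. The hosts' coverage differed by more than sampling noise (chi-square per degree of freedom 1.22 to 3.34), so no 2 libraries of a fraction were copies. PCR reads without molecular identifiers are not independent molecules. The RNA-seq named in the series' design was not analysed here. The check of B cell markers is not reported here.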

Additional observations from a re-analysis of the deposited data

How the results depend on the processing

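For Div5, Div8neg and Div8pos against Div0 and for Div8pos minus Div8neg, the direction of the 5 genes' differences held under every alternative run. For Div8neg minus Div5 it turned for Zfp146 with summed reads (1.14 points) and for Mlxip under several settings, from -3.87 in the table of 10 reads per group to 3.21 without the Div8neg library of host 197. With the host number as a replicate block, no call changed (Sp100 at Div5 -11.6 points, limma adjusted p = 0.0272, and 10, 11, 15 and 4 member CpGs lower at Div5, Div8neg, Div8pos and Div8pos minus Div8neg). A coverage minimum of 20 reads, or CpGs within 5 kb of a start site only, left each gene fewer than 5 CpGs and gave no gene level.

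With reads summed over a gene's CpGs, differences at Div5, Div8neg and Div8pos were -13.8, -15.7 and -26.9 points for Sp110, -28.9, -27.8 and -46.4 for Zfp146 and -12.1, -13.9 and -14.0 for Mlxip. For Div8pos minus Div8neg they were -18.6 for Zfp146, -0.180 for Mlxip, -10.7 for Sp100 (limma adjusted p = 0.0851, call lost) and -11.3 for Sp140 (0.0143, call gained), and Sp100 at Div5 was -13.7 (0.443, call lost). On a log2 odds scale Sp100 lost its call at Div5 (-1.13, limma adjusted p = 1) and for Div8pos minus Div8neg (-1.16, 0.144). Leaving out 1 library in turn gave -13.3 to -9.88 points for Sp100 at Div5, where 3 of the 4 settings lost the call, -19.1 to -13.9 for Mlxip at Div8neg and -8.68 to -3.53 for Mlxip in Div8pos minus Div8neg. The lone sample was assumed to vary like the other groups.

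In host 196 and host 197 alone, Sp100 differed by -8.34 and -14.8 points at Div5 and by -33.2 and -38.7 at Div8pos, and Sp140 by -0.169 and -3.01 at Div5 and by -13.1 and -16.3 at Div8pos. For Div8pos minus Div8neg they gave -6.44 and -10.4 for Sp140 and -9.28 and -2.93 for Mlxip.

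The next 3 alternatives were chosen after seeing the data. Without the CpG of largest loss, differences at Div5, Div8neg and Div8pos were -19.5, -23.4 and -33.1 for Sp110, -17.4, -20.5 and -32.6 for Zfp146, -0.618, -2.43 and -4.99 for Mlxip, -7.83, -16.4 and -29.6 for Sp100 and -0.215, -4.16 and -10.3 for Sp140, and for Div8pos minus Div8neg -2.56 for Mlxip and -6.12 for Sp140. From the authors' pooled fractions of the table of 10 reads per group they were -16.3, -20.1 and -29.0 for Sp110, -11.0, -13.2 and -19.1 for Zfp146 and -5.63, -9.50 and -19.0 for Mlxip. There Sp100 had -32.3 at Div8pos, and Div8pos minus Div8neg gave -5.94 for Zfp146, -9.52 for Mlxip and -11.9 for Sp100. Without the adjacent positions Sp140 had -3.60, -9.99 and -22.0, and -12.02 for Div8pos minus Div8neg.

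The count of member CpGs called lower at Div5, Div8neg and Div8pos, 10, 11 and 15, became 4, 4 and 6 at a minimum of 20 reads, where 246502 CpGs remained. That minimum also removed members from the count. Among those removed were the early Sp110 cluster and the Mlxip CpG at 123869161, with as few as 10 reads in a sample. The Zfp146 exon CpGs at 30947418 and 30947548, with as few as 12, were removed too. With the dispersion of each CpG alone it was 0 at all 4 contrasts, as it was over all CpGs, and 12, 17, 20 and 10 members had an unadjusted p under 0.05, against 1.8%, 5.64%, 17.8% and 5% of all CpGs. A limit of 10 points gave 7 for Div8pos minus Div8neg. Leaving out 1 library changed the counts, with the low counts where a library of host 197, the deeper in every fraction, was left out. The shares of all CpGs called in these runs and at a minimum of 20 reads are not given here. Over all CpGs, which are more than the members, 37 counts moved by more than 1.5 times and 27 did not. The few reads at the early CpGs of Sp110 and Mlxip limit the precision of single values.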
